A study of Mus musculus with 14 samples.

Results

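Conditional Ripk4 knockout kidneys (cKO) were compared with wild-type kidneys (WT) of mice given cisplatin, across all genes of the table. The comparison rested on 8 of the 14 libraries of the study, 4 labelled cKO with cisplatin and 4 labelled wt with cisplatin. Per the labels, both groups had received 15 mg per kg of cisplatin into the abdomen, and kidneys were collected 4 days later. The other 6 libraries, 3 WT and 3 cKO kidneys without drug, entered the model and gave the untreated levels. The labels name neither the Cre line that deletes Ripk4 nor the cells in which it acts, and they give no age, sex or batch. Nothing in them pairs the libraries, and each library was taken as 1 animal, so the spread measured is that between these libraries. The counts and the main genes are given with all 8 libraries and without the library labelled cKO cisplatin replicate 4, and a fold change with no second value is from all 8 libraries. In globin and injury genes that library was at levels like those of untreated kidney, against its treatment label. Whether it had received the drug was not tested. Replicate numbers follow the order of the records and carry no meaning beyond a name.

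Ripk4 encodes a kinase of the receptor-interacting protein family, best known for its role in the differentiation of the epidermis. Cisplatin, a platinum anticancer drug, forms crosslinks in DNA. It is taken up by the proximal tubule, the segment that recovers most of the filtered sugar, amino acids and phosphate, and it injures that segment. Injured tubule cells lose transporters and metabolic enzymes and switch on genes such as Havcr1 (kidney injury molecule 1) and Lcn2 (neutrophil gelatinase-associated lipocalin). Oxidative stress, ferroptosis and ACSM1 are named in the title of the series. Ferroptosis is a form of death driven by oxidized membrane lipids, and ACSM1 is an enzyme of mitochondria that activates medium-chain fatty acids.

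After cisplatin the cKO kidneys differed from the WT kidneys in both directions. Genes of tubular injury, NF-kB signalling, fibrinogen and complement were lower in cKO, while transporters and metabolic enzymes of the proximal and distal tubule were higher. Without replicate 4 the largest of these differences kept their direction and were smaller.

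The upstream regions of 5 genes are shown, which were picked with their changes after cisplatin known. The fibrinogen chains Fga, Fgb and Fgg lie side by side on chromosome 3 and were lower together, Krt20 had the largest fall of all genes named, and Inmt had the largest rise. Each line gives the 250 bases before the RefSeq start of the gene on GRCm38.p6, read 5′ to 3′ on the gene's strand. Capitals mark matches to 4 motifs searched on both strands. These were CTGGGA, a core known from interleukin-6 response elements, TTCNNNGAA, the core bound by STAT factors, TGANTCA, that of AP-1, and TGACNNNGC, that of NRF2.
Fga (chr3:83025903-83026152, plus strand): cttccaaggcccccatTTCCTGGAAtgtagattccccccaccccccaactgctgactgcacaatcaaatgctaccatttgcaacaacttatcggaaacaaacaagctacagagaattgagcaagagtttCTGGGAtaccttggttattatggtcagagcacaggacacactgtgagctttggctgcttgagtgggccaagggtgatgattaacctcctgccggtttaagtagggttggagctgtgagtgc
Fgb (chr3:83049864-83050113, minus strand): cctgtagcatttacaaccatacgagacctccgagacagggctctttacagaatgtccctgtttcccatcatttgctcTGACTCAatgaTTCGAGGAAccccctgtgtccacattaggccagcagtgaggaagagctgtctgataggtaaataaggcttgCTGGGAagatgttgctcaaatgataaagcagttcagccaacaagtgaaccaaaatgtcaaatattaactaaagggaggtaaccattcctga
Fgg (chr3:83007474-83007723, plus strand): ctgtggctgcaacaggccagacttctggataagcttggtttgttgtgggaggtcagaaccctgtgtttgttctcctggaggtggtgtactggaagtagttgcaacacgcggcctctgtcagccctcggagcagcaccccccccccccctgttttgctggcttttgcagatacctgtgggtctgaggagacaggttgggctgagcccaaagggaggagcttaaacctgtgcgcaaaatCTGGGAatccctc
Krt20 (chr11:99438154-99438403, minus strand): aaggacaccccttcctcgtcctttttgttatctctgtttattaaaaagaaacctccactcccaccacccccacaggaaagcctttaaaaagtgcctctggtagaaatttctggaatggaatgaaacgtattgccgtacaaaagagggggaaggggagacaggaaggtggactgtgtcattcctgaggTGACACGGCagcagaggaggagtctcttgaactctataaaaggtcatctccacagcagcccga
Inmt (chr6:55174991-55175240, minus strand): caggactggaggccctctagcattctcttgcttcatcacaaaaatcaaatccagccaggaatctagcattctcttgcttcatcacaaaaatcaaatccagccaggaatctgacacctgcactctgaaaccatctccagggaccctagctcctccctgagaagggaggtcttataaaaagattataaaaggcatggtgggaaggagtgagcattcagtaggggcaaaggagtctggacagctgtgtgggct
The 3 fibrinogen windows each held CTGGGA, whose first base lay at −121 in Fga, −91 in Fgb and −13 in Fgg, counted from the start. TTCNNNGAA was found in Fga and Fgb, TGANTCA in Fgb and TGACNNNGC in Krt20, while the Inmt window held no match to any of the 4. No capital run here was counted under 2 motifs. Such matches are common. CTGGGA was present in 27% of the 32851 RefSeq windows of this length and in 28% of the 9660 windows of tested genes not called. It was present in 30.5% of the 2589 windows of genes that fell and in 28.4% of the 1237 windows of genes that rose. For TTCNNNGAA the share was 7.02% of all windows, for TGANTCA 6.75% and for TGACNNNGC 10.2%. In the same order the shares were 5.93%, 4.43% and 11.4% for genes not called. They were 6.3%, 5.91% and 12.9% for genes that fell and 5.66%, 4.53% and 10.9% for genes that rose. A match describes the letters of the window and not a bound site.

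Some libraries stood apart. Depth, read from the steps of the FPKM values, was 36.7 to 77.0 M assigned reads over the 14 libraries, and 1 read in a gene of 1 kb was worth 0.0130 to 0.0273 FPKM. Gene lengths for this were exon lengths of GENCODE M21. With them 52.2 to 58.6% of low values, those under 200 reads, came out as whole reads. Depth and floor are thus estimates. FPKM, the authors' unit, is reads per kilobase of gene and per 1 M assigned reads. In cKO cisplatin replicate 4 the globin Hba-a1 was 267 FPKM, inside the untreated range of 176 to 379, whereas the other 7 cisplatin libraries were at or below 0.822. Its Hbb-bs was 441 FPKM against at most 0.533 in those 7. The mean score of injury genes, taken as the mean log2(FPKM + 1) over a list of genes, placed it with the untreated libraries as well. Its injury score was 3.55, against 3.34 to 3.85 in the 6 untreated libraries, 4.41 to 5.05 in the other 3 cKO cisplatin libraries and 6.29 to 7.14 in WT cisplatin. Not every score of replicate 4 lay in the untreated range. Its scores of p53 targets (3.06, against 3.24 to 3.33 untreated) and cell cycle genes (1.60, against 1.87 to 2.03) were below it. Its score of female-biased genes (5.62, against 4.53 to 5.05) was above it. More lists lay outside the range, so these are examples. Acyl-CoA synthetases (5.89, against 6.01 to 6.14) and RIP kinases (2.76, against 2.98 to 3.23) were below it. So were sex chromosome genes (3.60, against 3.85 to 4.09), while antioxidant enzymes (7.22, against 6.99 to 7.14) were above it. What set this library apart was not tested. WT replicate 1 and cKO replicate 1 of the cisplatin groups shared low scores of endothelium (3.27 and 3.55, against 4.12 to 4.39 in the other 6 cisplatin libraries) and of podocytes (2.42 and 2.67, against 3.46 to 3.98). In all 14 libraries Ddx3y, a Y-linked gene, was at 14.2 to 25.1 FPKM and Xist at or below 0.0348. The neutrophil gene Ly6g stayed at or below 0.284 FPKM, the adrenal gene Cyp11b1 at or below 0.00666 and the muscle gene Ckm at or below 0.0398. Umod, a gene of the kidney's thick ascending limb, was at 1540 to 2579 FPKM in the 8 cisplatin libraries.

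**Figure D1:**
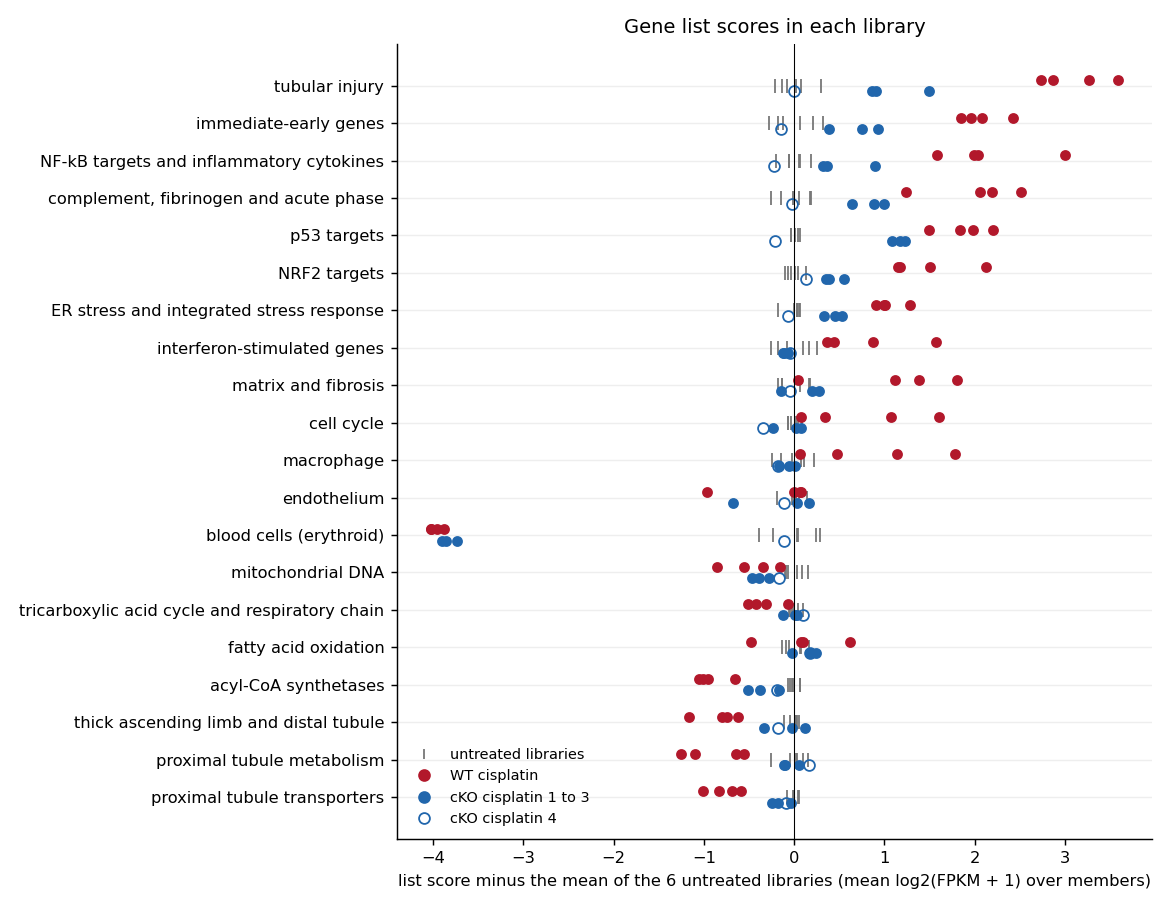
Mean score of gene lists in each of the 8 cisplatin libraries, as the difference from the mean of the 6 untreated libraries on the log2(FPKM + 1) scale; each point is 1 library, the open circle is cKO replicate 4 and the short strokes are the untreated libraries. The injury score was 2.74 to 3.59 above untreated in WT, 0.86 to 1.5 above in cKO replicates 1 to 3 and 0.00 in cKO replicate 4.

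Ripk4 itself (ENSMUSG00000005251, mm10 chromosome 16, 97741933 to 97763737) was read first, as the targeted gene. After cisplatin it was 7.61, 10.6, 13.3 and 9 FPKM in WT and 5.32, 5.62, 9.09 and 3.61 FPKM in cKO. Without drug it was 7.18, 8.11 and 8.51 FPKM in WT and 3.68, 3.98 and 4.61 FPKM in cKO. The untreated groups did not overlap. The cisplatin groups did, because cKO replicate 3 lay above 2 of the WT libraries. A residual signal of Ripk4 thus remained in every cKO library, and an FPKM over the whole gene does not tell deleted from intact transcripts. The log2 fold change, cKO minus WT on log2(FPKM + 1), was −0.72 ± 0.21 (SE; limma adjusted p = 0.0216; two-sided exact permutation p = 0.0857). Without replicate 4 it was −0.55 ± 0.19 and was not called (limma adjusted p = 0.0660). Without WT replicate 3 the call was lost too, at −0.59 (limma adjusted p = 0.0722). The threshold for a call was an adjusted p under 0.05, and rose or fell below means higher or lower in cKO among called genes.

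Acsm1 (ENSMUSG00000033533, mm10 chromosome 7, 119607026 to 119662515) was 33.4, 30.5, 32.3 and 26.1 FPKM in WT and 66.9, 49.9, 71.1 and 185 FPKM in cKO after cisplatin. Every cKO library lay above every WT library, and replicate 4 was above the untreated mean of 144 FPKM in cKO. Acsm1 rose by 1.39 ± 0.29 (limma adjusted p = 0.00415; exact permutation p = 0.0286, the smallest that 4 against 4 libraries allow). Without replicate 4 the rise was 1.00 ± 0.14 (limma adjusted p = 0.00105; exact permutation p = 0.0571, the smallest that 4 against 3 allow). Gm19950 and RP23-306P12.3 overlap it, and since the strand setting of the counting is not given, their reads cannot be told apart. Reads shared among the closely related Acsm genes are a further limit.

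Of the whole table, limma tested 15193 genes. With all 8 libraries 4088 genes were called (26.9% of those tested), of which 1333 rose (8.77%) and 2755 fell (18.1%). Without replicate 4 the calls numbered 2882 (19.0%), of which 980 rose (6.45%) and 1902 fell (12.5%). Of these, 2804 genes were called both ways, which is 68.6% of the calls with all 8 libraries and 97.3% of those without replicate 4, all in the same direction. A change of at least 2-fold was met by 253 called genes that rose and 599 that fell, and without replicate 4 by 203 and 478. The groups did not overlap in 3217 genes (21.2%) with 4 against 4 libraries and in 3598 genes (23.7%) with 4 against 3. The split between rises and falls depended on the scaling. Rises made up 32.6% of the calls with FPKM as deposited, 47.3% after median-of-ratios scaling and 48.9% after quantile normalization. The median log2 fold change of all genes tested was −0.11 as deposited, −0.000283 after median-of-ratios scaling and 0.0131 after quantile normalization, so small changes are to be read against that shift. The count depended on the untreated libraries too, since the model shared 1 spread per gene among all 14 libraries. Fitted on the 2 cisplatin groups alone, 2124 genes were called, and 910 without replicate 4. WT replicate 1 also decided the count: without it 6196 genes were called. Leaving out replicate 1 of both groups, the pair with low endothelial and podocyte scores, gave 5678 calls with replicate 4 kept and 4473 without it.

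**Figure D2:**
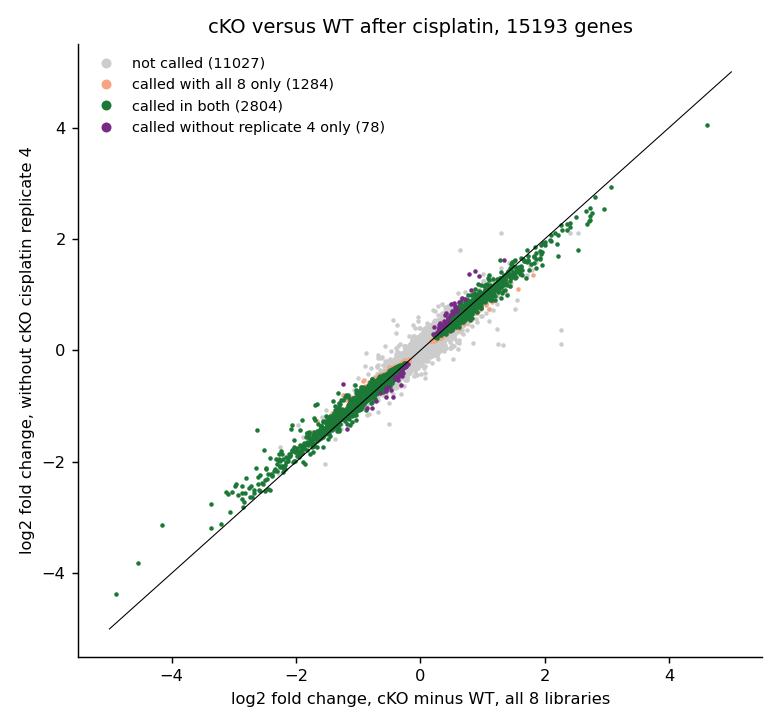
Log2 fold change, cKO minus WT after cisplatin, of each of the 15193 genes tested, with all 8 libraries (x axis) and without cKO replicate 4 (y axis); each point is 1 gene colours show in which fit it was called and the line marks equal values. The 2804 genes called both ways have the same sign in both, and the largest changes are smaller without the library.

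The largest falls belonged to injury genes of the tubule and to genes of the acute phase. Krt20, a keratin of simple epithelia (ENSMUSG00000035775, chromosome 11, 99428403 to 99438150), was 63.0, 113, 151 and 76.4 FPKM in WT and 7.57, 2.97, 1.99 and 0.0995 FPKM in cKO. The groups lay far apart, and replicate 4 was at the untreated means of 0.218 FPKM in WT and 0.350 FPKM in cKO or below. Krt20 fell by 4.89 ± 0.47 on the log2 scale (limma adjusted p = 8.52e-05) and without replicate 4 by 4.37 ± 0.34 (limma adjusted p = 1.55e-04). Havcr1, the gene of kidney injury molecule 1 (ENSMUSG00000040405, chromosome 11, 46735080 to 46779578), was 370, 414, 1116 and 1060 FPKM in WT and 70.8, 37.1, 35.2 and 5.38 FPKM in cKO. Replicate 4 alone was at the untreated level, whose means were 5.91 and 5.31 FPKM, and the other 3 cKO libraries stood several-fold above it. Havcr1 fell by 4.53 ± 0.65 (limma adjusted p = 4.64e-04) and without replicate 4 by 3.82 ± 0.50 (limma adjusted p = 7.49e-04).

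Lcn2, a secreted siderophore-binding protein used as a marker of kidney injury, was 301, 302, 455 and 494 FPKM in WT and 112, 25.3, 26.0 and 1.5 FPKM in cKO. The cKO group was itself widely spread, from replicate 1, the highest, to replicate 4, which was below the untreated means of 2.52 and 2.94 FPKM. The fall was 4.16 ± 0.80 (limma adjusted p = 0.00253), and 3.13 ± 0.45 without replicate 4 (limma adjusted p = 0.00112). Complement C3, the central protein of that cascade, was 554, 1215, 1557 and 749 FPKM in WT and 157, 191, 87.8 and 24.4 FPKM in cKO. Its groups were apart in every library, with fold changes of −3.37 and, without replicate 4, −2.76. Timp1, an inhibitor of matrix metalloproteinases, was 16.3, 15.5, 67.4 and 28.1 FPKM in WT and 5.91, 2.24, 3.29 and 0.112 FPKM in cKO (−3.09 and −2.58).

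The fibrinogen chains, whose upstream sequences are given above, were all lower in cKO. Fgg was 132, 138, 165 and 162 FPKM in WT and 45.3, 24.9, 12.9 and 4.12 FPKM in cKO. Fga, named for its role after its values were known, was 135, 225, 190 and 247 FPKM in WT and 70.5, 50.3, 24.5 and 9.26 FPKM in cKO. Fgb was at a lower level, with 12.8, 13.6, 15.9 and 20.5 FPKM in WT and 3.93, 1.41, 0.802 and 0.201 FPKM in cKO. In each chain cKO replicate 1 was the highest cKO library and replicate 4 the lowest, and no cKO library reached the lowest WT library. The falls were 3.13 ± 0.50 for Fgg, 2.64 ± 0.45 for Fga and 2.87 ± 0.32 for Fgb (limma adjusted p = 8.54e-04, 0.00127 and 1.41e-04). Without replicate 4 they were 2.55, 2.11 and 2.57. Fgg overlaps Gm30097.

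Among the other large falls were genes of the NRF2 response, AP-1 and epithelial stress. Fosl1, an AP-1 subunit, was 8.10, 15.8, 22.7 and 20.6 FPKM in WT and 1.41, 1.41, 0.951 and 0.393 FPKM in cKO, a fall of 3.07 ± 0.26 (limma adjusted p = 7.87e-05). Tnfrsf12a, the receptor of the cytokine TWEAK, was 263, 287, 356 and 337 FPKM in WT and 103, 40.9, 33.1 and 12.7 FPKM in cKO (−3.03). Sprr2g, of the small proline-rich family known from the epidermis, was 15.1, 8.76, 15.9 and 23.6 FPKM in WT and 0.963, 0.182, 1.36 and 0.0368 FPKM in cKO (−3.37). These 3 genes kept all WT libraries above all cKO libraries, and without replicate 4 their fold changes were −2.90, −2.55 and −3.18. Sprr2 genes are near copies of each other, and reads may be split among them. Cbr3, a carbonyl reductase and NRF2 target, was 31.5, 16.2 and 13.4 FPKM in WT replicates 1 to 3 and 143 FPKM in replicate 4, and 3.12, 3.40, 1.96 and 1.97 FPKM in cKO. Here replicate 4 of cKO lay within the range of its group, and the fold change was −3.21 with it and −3.12 without it.

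The largest rises included enzymes and transporters of the differentiated tubule. Inmt, indolethylamine N-methyltransferase (ENSMUSG00000003477, chromosome 6, 55170626 to 55175043), was 32.6, 12.6, 13 and 7.53 FPKM in WT and 238, 193, 341 and 1203 FPKM in cKO. Untreated means were 1010 FPKM in WT and 1087 FPKM in cKO, so replicate 4 was at the untreated level and the other 3 cKO libraries lay between it and WT. Inmt rose by 4.60 ± 0.50 (limma adjusted p = 1.33e-04) and without replicate 4 by 4.04 ± 0.36 (limma adjusted p = 1.68e-04). Dnase1, the secreted DNA nuclease, was 183, 170, 149 and 57.0 FPKM in WT and 765, 627, 584 and 1895 FPKM in cKO (2.73, and 2.35 without replicate 4). Its groups were apart, with replicate 4 again the highest. Hpd, an enzyme of tyrosine breakdown, was 48.6, 56.4, 2.27 and 5.26 FPKM in WT and 89.7, 223, 79.4 and 174 FPKM in cKO. Its WT libraries fell into a higher and a lower pair, and the rise of 3.07 carried an SE of 0.75 (limma adjusted p = 0.0100; 2.92 without replicate 4). Hpd overlaps Psmd9 and Dnase1 overlaps Trap1 and Gm15879.

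Genes of the distal tubule were among these rises. Slc12a3, the thiazide-sensitive sodium-chloride cotransporter, was 26.1, 51.4, 57.3 and 10.9 FPKM in WT and 132, 278, 263 and 246 FPKM in cKO. Pvalb, a calcium-binding protein of the early distal convoluted tubule, was 0.0235, 0.203, 0.0382 and 0.0601 FPKM in WT and 3.5, 4.51, 5.24 and 15.4 FPKM in cKO. In WT, Pvalb was close to the worth of a few reads. Slc12a3 rose by 2.81 ± 0.41 (limma adjusted p = 4.81e-04) and Pvalb by 2.72 ± 0.35 (limma adjusted p = 2.74e-04), and without replicate 4 by 2.76 and 2.32. For Slc12a3 the cKO library that stood apart was replicate 1, the lowest, and not replicate 4. Kl encodes klotho, the coreceptor for FGF23. It was 38.2, 51.6, 39.6 and 37.5 FPKM in WT and 88.8, 110, 126 and 112 FPKM in cKO. Kl rose by 1.37 ± 0.11 (limma adjusted p = 7.87e-05), with little spread in either group and nearly the same value, 1.35, without replicate 4. In bulk kidney a change in the share of a cell type and a change of RNA per cell cannot be told apart.

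The other named rises included enzymes and carriers found in the proximal tubule. Car14, a membrane-bound carbonic anhydrase, was 12.7, 22.5, 7.94 and 10.2 FPKM in WT and 56.8, 82.9, 99.4 and 129 FPKM in cKO (2.73). Ces1e, a carboxylesterase, was 14.5, 19.0, 6.10 and 5.46 FPKM in WT and 46.1, 63.8, 61.4 and 76.5 FPKM in cKO (2.51). Slc22a28, an organic anion transporter family member, was 15.5, 9.54, 10.2 and 5.53 FPKM in WT and 59.3, 32.1, 58.4 and 84.3 FPKM in cKO (2.41). All 3 had groups that did not overlap, and without replicate 4 their fold changes were 2.55, 2.40 and 2.21. Cyp2d12 was 15.3, 13.6, 11.4 and 0.443 FPKM in WT and 25.1, 39.8, 53.9 and 124 FPKM in cKO (2.69, and 2.26 without replicate 4). Pzp, a protease-binding plasma protein, was 8.15, 1.07, 3.14 and 1.53 FPKM in WT and 37.1, 10.3, 21.5 and 32.4 FPKM in cKO (2.67, and 2.51). These last genes were more scattered, with WT replicate 4 of Cyp2d12 far under its group. Car14 overlaps Aph1a, and the Cyp2d, Ces1 and Slc22 genes have close paralogs among which reads may be divided.

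**Figure D3:**
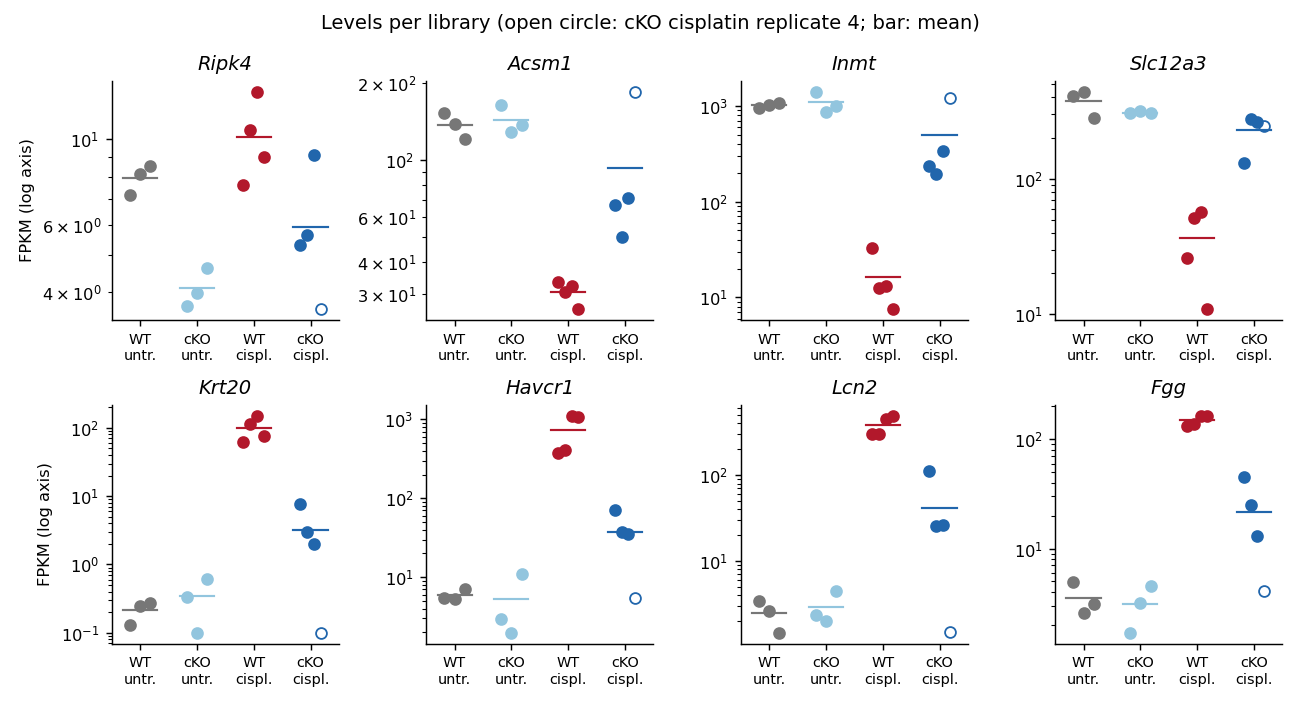
FPKM of 8 genes on log axes in the 14 libraries; each point is 1 library, in 4 groups by genotype and drug, bars are group means and the open circle is cKO cisplatin replicate 4. Krt20, Havcr1, Lcn2 and Fgg are lower and Inmt, Slc12a3 and Acsm1 higher in cKO than in WT after cisplatin, with no overlap between those 2 groups, while Ripk4 overlaps.

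Gene lists gave the wider picture, beside the 8.77% of all genes that rose and the 18.1% that fell. The lists were chosen with earlier results of these data known. Their counts thus describe the members and are no independent test of a theme. Among 28 tested genes of tubular injury 27 fell, 0 rose, and the median log2 fold change was −2.35 against −0.11 over all genes. Plau, the urokinase protease, was the remaining member, at −0.86 (limma adjusted p = 0.0519), and it was called without replicate 4 at −1.03. Without that library all 28 fell, with a median of −2.09. Spp1, osteopontin, was 9172, 8142, 13548 and 8716 FPKM in WT and 2902, 1351, 1602 and 380 FPKM in cKO. Replicate 4 was at the untreated means of 344 and 357 FPKM, and the others remained several-fold above them (fold change −2.96, and −2.39 without it). Plaur, the urokinase receptor, was 26.3 to 58.2 FPKM in WT and 5.21 to 10.2 FPKM in cKO (−2.38). Anxa2, an annexin, was 174 to 405 FPKM against 40.0 to 66.4 FPKM (−2.18). Vcam1, an adhesion molecule for leukocytes, was 25.4, 62.8, 218 and 35.6 FPKM in WT and 12.2, 7.59, 7.83 and 2.89 FPKM in cKO. Of these, Vcam1 was the most uneven in WT, where replicate 3 was highest.

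**Figure D4:**
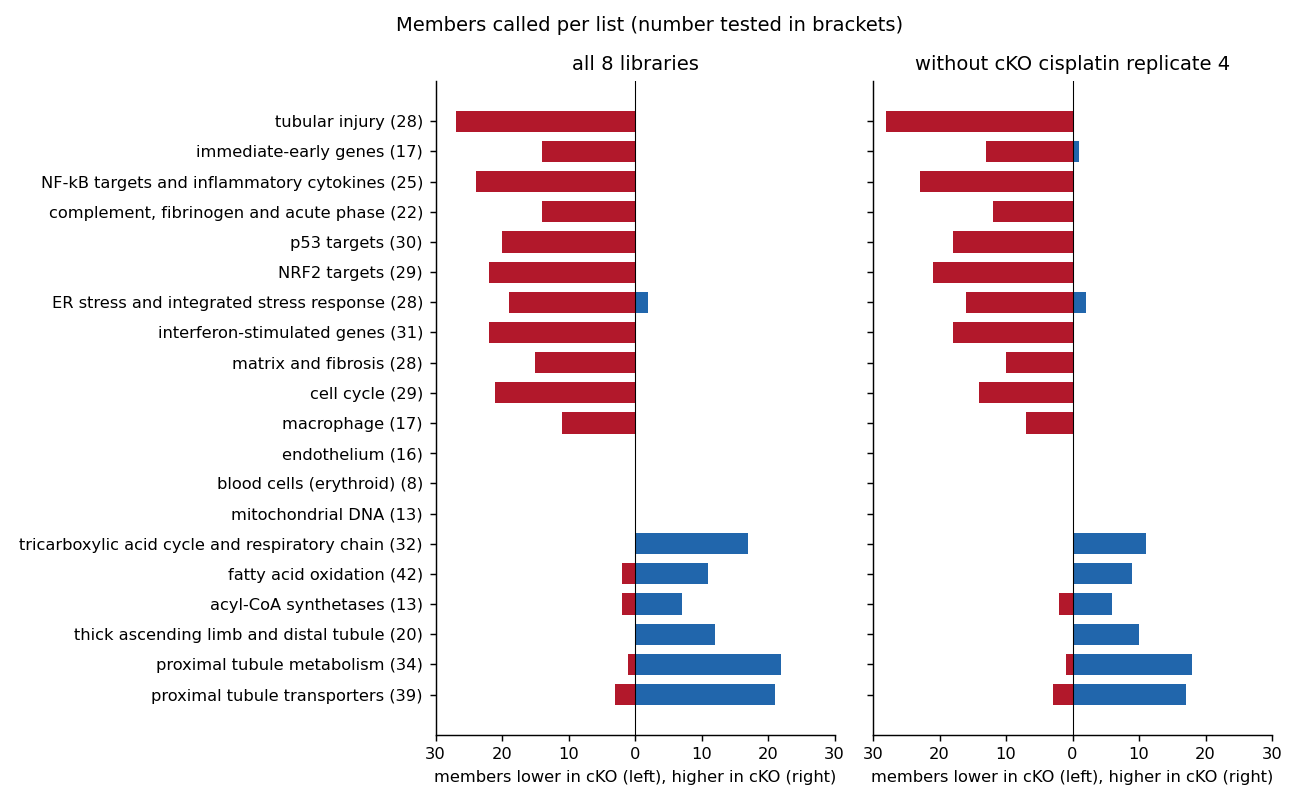
Number of members of each gene list that rose (bars to the right) or fell (bars to the left) in cKO against WT after cisplatin, with all 8 libraries (left panel) and without cKO replicate 4 (right panel), and the number tested in brackets. The longest bars to the left are tubular injury, with 27 of 28 lower, and NF-kB targets, with 24 of 25 lower, and to the right proximal tubule metabolism, with 22 of 34 higher.

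Inflammatory signalling was lower as a group. Of 25 tested NF-kB targets and cytokines 24 fell, and 23 without replicate 4, with medians of −1.82 and −1.55. Csf1, the growth factor of macrophages, was 25.8, 35.9, 84.6 and 92.4 FPKM in WT and 8.92, 10.4, 8.44 and 5.4 FPKM in cKO (−2.54 ± 0.34, limma adjusted p = 3.11e-04; −2.38 without replicate 4). The chemokine Ccl2 was 2.43, 6.36, 34.1 and 8.66 FPKM in WT and 1.14, 0.560, 0.441 and 0.326 FPKM in cKO (−2.60), and Cxcl1 was 20.7, 19.4, 30.6 and 20.7 FPKM against 10.6, 1.54, 2.79 and 0.153 FPKM (−2.80). All WT libraries of the 3 genes were above all cKO libraries. Without replicate 4 the fold change was −2.51 for Ccl2 and −2.29 for Cxcl1. Cd14, the coreceptor for bacterial lipopolysaccharide, was 21.1 to 42.3 FPKM in WT and 3.81 to 9.57 FPKM in cKO (−2.16). Saa1, an acute-phase protein, was 3 to 4.64 FPKM in WT and at most 0.749 FPKM in cKO, listed at 0 in replicate 4 and in all untreated libraries (−1.82). Of 22 genes of complement, fibrinogen and the acute phase 14 fell, and 12 without replicate 4, with a median of −1.20. Ceruloplasmin (Cp) was 92.7 to 243 FPKM against 20.4 to 58.3 FPKM (−2.21).

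Interferon-stimulated genes fell in 22 of 31, and in 18 without replicate 4 (medians −0.90 and −0.93). Irf7, a master regulator of interferon genes, was 21.4, 19.6, 48.5 and 30.9 FPKM in WT and 10.5, 8.78, 10.1 and 12.9 FPKM in cKO (−1.35). Its cKO libraries were near the untreated means of 10.1 and 8.73 FPKM, and replicate 4 was the highest of them. Markers of macrophages moved with these groups: 11 of 17 fell, 7 without replicate 4, with a median of −1.17. Their mean score was 2.76, 3.18, 4.48 and 3.84 in WT, 2.53 to 2.71 in cKO replicates 1 to 3 and 2.52 in replicate 4, against 2.45 to 2.92 without drug. Cd68, a lysosomal macrophage protein, was 11.3, 11.5, 33.6 and 23.2 FPKM in WT and 5.62, 3.90, 3.73 and 2.62 FPKM in cKO (−1.96). WT replicates 3 and 4 were the high ones, as they were for Csf1. Of 3 tested neutrophil genes 3 fell, 0 without replicate 4 or without WT replicate 3 and 1 without WT replicate 2 or 4, among them S100a8 at 0.646 to 3.13 FPKM in WT and 0.0975 to 0.886 FPKM in cKO. No lymphocyte gene of 9 was called in either fit. The part of immune cells in the inflammatory groups was not tested.

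Matrix genes fell in 15 of 28 (10 without replicate 4, medians −1.0 and −0.96) and cell cycle genes in 21 of 29 (14 without it, medians −0.82 and −0.80). Without WT replicate 1, 23 matrix genes fell, and without WT replicate 4, 12 cell cycle genes. Col18a1, a basement membrane collagen, was 112, 189, 294 and 228 FPKM in WT and 61.3, 57.6, 69.3 and 42.6 FPKM in cKO (−1.76). Its lowest WT library was replicate 1. The cyclin-dependent kinase Cdk1 was 1.87, 2.06, 10.8 and 4.17 FPKM in WT and 0.971, 0.470, 1.23 and 0.261 FPKM in cKO (−1.51). In this list too the WT libraries differed, with scores of 2.02 and 2.28 in replicates 1 and 2, 3.54 and 3.01 in replicates 3 and 4, and 1.60 to 2.02 in cKO. Fibroblast markers fell in 4 of 11, and in 2 without replicate 4 and likewise without any of WT replicates 2 and 3 and cKO replicates 2 and 3. Their score was 2.89 and 2.87 in replicate 1 of WT and of cKO and 3.24 to 4.68 in the other 6 libraries, so this list moved with the pair of libraries set apart above as well as with genotype. Col1a1, of interstitial collagen, was 21.5, 52.0, 164 and 88.6 FPKM in WT and 14.6, 15.4, 21.9 and 14.6 FPKM in cKO (−1.90 ± 0.46, limma adjusted p = 0.00982), and its groups overlapped at WT replicate 1.

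Targets of p53, the factor that responds to DNA damage, fell in 20 of 30 with all 8 libraries and in 18 without replicate 4 (medians −0.98 and −0.63). Without WT replicate 4 there were 13 falls, and under median-of-ratios scaling and quantile normalization 2 of the 30 rose. Cdkn1a, which encodes the cell cycle inhibitor p21, was 216, 416, 361 and 435 FPKM in WT and 127, 167, 97.3 and 3.60 FPKM in cKO. Replicates 1 to 3 of cKO were far above the untreated means of 4.63 and 5.06 FPKM, and replicate 4 was below them. The fold change was −2.63 ± 0.84 with replicate 4 (limma adjusted p = 0.0333) and −1.43 ± 0.25 without it (limma adjusted p = 0.00316). Without WT replicate 2, 3 or 4 it was not called, and over all settings its limma adjusted p ran from 0.00316 to 0.104. Mdm2, which degrades p53, was 87.6, 111, 148 and 177 FPKM in WT and 79.1, 66.9, 58.6 and 22.8 FPKM in cKO (−1.27, and −0.89 without replicate 4). The apoptosis gene Bax was 104, 84.0, 96.9 and 107 FPKM against 76.3, 55.2, 58.4 and 33.6 FPKM (−0.85, and −0.63). Gdf15, a stress cytokine, was 168, 123, 156 and 229 FPKM against 88.6, 37.7, 31.1 and 5.39 FPKM (−2.52, and −1.79). In these genes cKO replicates 1 to 3 lay between untreated and WT cisplatin levels. The p53 score was 4.36 to 4.50 in those 3 libraries, 4.77 to 5.47 in WT, 3.06 in replicate 4 and 3.24 to 3.33 without drug.

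Cell death genes were lower in part. Of 23 apoptosis genes 11 fell in either fit (medians −0.37 and −0.34), among them the death receptor Tnfrsf1a at 187 to 252 FPKM in WT and 82.0 to 116 FPKM in cKO (−1.14). The protective Bcl2l1 and Mcl1 fell as well, by 0.75 and 0.71, so the list held falls of both killers and protectors. Of 18 genes of necroptosis and pyroptosis 10 fell, and 8 without replicate 4. Mlkl, the pore-forming effector of necroptosis, was 3.11, 5.91, 10.1 and 6.32 FPKM in WT and 1.62, 1.19, 1.27 and 1.28 FPKM in cKO (−1.57 ± 0.22, limma adjusted p = 4.37e-04). Ripk3, the kinase that activates it, was 0.799, 1.23, 4.31 and 3.37 FPKM in WT and 0.472, 0.447, 0.354 and 0.365 FPKM in cKO (−1.14). Both had all WT libraries above all cKO libraries and no separate level in replicate 4. Of the 7 RIP kinases tested, counting Ripk4 itself, 4 fell and 1 rose, and without replicate 4 of cKO or replicate 3 of WT there were 2 falls and 1 rise. The one that rose was Lrrk2, at 29.2 to 43.0 FPKM in WT and 47.6 to 61.9 FPKM in cKO (0.66); Ripk1 was at −0.33 (limma adjusted p = 0.175).

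Genes set by NRF2, a transcription factor of the response to oxidative and electrophilic stress, fell in 22 of 29, and in 21 without replicate 4 (medians −1.05 and −0.89). Srxn1, which repairs oxidized peroxiredoxins, was 286, 280, 245 and 723 FPKM in WT and 96.7, 84.9, 78.2 and 41.2 FPKM in cKO (−2.25). Hmox1, heme oxygenase 1, was 122, 75.8, 138 and 311 FPKM against 48.9, 29.5, 30.3 and 14.3 FPKM (−2.28). Nqo1, a quinone reductase, was 184, 134, 79.2 and 240 FPKM against 59.9, 54.9, 44.8 and 38.6 FPKM (−1.57). WT replicate 4 was the highest library in all 3, and every cKO library was below every WT library. Without cKO replicate 4 the fold changes were −1.99 for Srxn1, −1.97 for Hmox1 and −1.46 for Nqo1. In a separate list of 25 antioxidant enzymes 5 fell and 1 rose, and without replicate 4 there were 2 falls and 1 rise, with medians of 0.07 and 0.05. Leaving out any single library except WT replicates 1 and 2 left 2 or 3 of these falls, without WT replicate 1 there were 6 rises, and under median-of-ratios scaling 1 fell. The riser was Sod2, mitochondrial superoxide dismutase, at 54.6 to 68.8 FPKM in WT and 79.4 to 93.8 FPKM in cKO (0.47). Metallothioneins Mt1 and Mt2, which bind metals, fell by 1.24 and 1.33. Mt1 was 383 to 656 FPKM in WT and 159 to 261 FPKM in cKO, above the untreated means of 97.2 and 115 FPKM.

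Regulators of ferroptosis did not move one way. Of 28 suppressors 11 fell and 3 rose, and without replicate 4 there were 8 falls and 1 rise (medians −0.15 and −0.16). Scaling changed the balance, to 7 falls and 5 rises by median-of-ratios and 10 falls and 7 rises by quantile normalization. Without WT replicate 1 there were 5 rises, and without cKO replicate 3 there was 1. Gpx4, the enzyme that reduces lipid peroxides, was 1902, 1049, 917 and 992 FPKM in WT and 1398, 909, 1024 and 1269 FPKM in cKO. The groups overlapped, and its fold change was −0.03 ± 0.20 (limma adjusted p = 0.921), changing sign to 0.09 under median-of-ratios scaling. Gch1, which makes the antioxidant tetrahydrobiopterin, was 3.08 to 4.12 FPKM in WT and 0.337 to 1.03 FPKM in cKO (−1.38). Fth1, the ferritin heavy chain, fell by 0.64 and Txnrd1, thioredoxin reductase 1, by 1.46. Of 24 promoters and markers of ferroptosis 9 fell and 3 rose, and without replicate 4 there were 8 falls and 3 rises (medians −0.24 and −0.22). Acsl4, which activates polyunsaturated fatty acids for use in membrane lipids, was 23.1, 51.0, 37.6 and 45.8 FPKM in WT and 15.7, 17.1, 15.3 and 8.90 FPKM in cKO (−1.38 ± 0.22, limma adjusted p = 9.80e-04). Tfrc, the transferrin receptor, was 47.6, 36.5, 32.4 and 58.8 FPKM against 24.0, 23.6, 35.9 and 24.5 FPKM (−0.66), overlapping at cKO replicate 3. Fads2, a fatty acid desaturase, rose by 0.61. Some of these genes, such as Txnrd1, are NRF2 targets as well, so the lists are not independent.

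Transport and metabolism of the proximal tubule stood higher in cKO. Of 39 transporters 21 rose and 3 fell, and without replicate 4 there were 17 rises and 3 falls (medians 0.55 and 0.58). Slc22a30 was 25, 13.5, 17.7 and 13.8 FPKM in WT and 86.9, 46.3, 70.2 and 75.3 FPKM in cKO (1.94 ± 0.21, limma adjusted p = 1.31e-04). Slc7a13, an amino acid carrier, was 105, 48.9, 70.8 and 36.1 FPKM in WT and 247, 182, 270 and 503 FPKM in cKO (2.20). Without replicate 4 Slc22a30 rose by 1.89 and Slc7a13 by 1.92. The 3 that fell were Slc13a1, Slc6a18 and Slc5a1, at −0.97, −0.64 and −0.54. Of the markers Lrp2, the endocytic receptor megalin, was 150, 166, 73.6 and 129 FPKM in WT and 263, 301, 222 and 314 FPKM in cKO (1.13), against untreated means of 284 and 315 FPKM. Slc5a2, the sodium-glucose cotransporter that takes up most glucose, rose by 1.11, and 7 of 10 cell type markers of the segment rose in all, 6 without replicate 4.

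Of 34 metabolic genes of the segment 22 rose and 1, Gsta2, fell, and without replicate 4 there were 18 rises and 1 fall (medians 0.92 and 0.87). Ass1, argininosuccinate synthase of arginine synthesis, was 1657, 1396, 875 and 1000 FPKM in WT and 3190, 3183, 3759 and 3718 FPKM in cKO (1.53). Gatm, the first enzyme of creatine synthesis, was 50.6, 127, 82.8 and 80.3 FPKM in WT and 207, 360, 580 and 418 FPKM in cKO (2.17). The groups of each gene were apart, and replicate 4 was not the highest cKO library in either. Among 13 acyl-CoA synthetases 7 rose and 2 fell, and without replicate 4 there were 6 rises and 2 falls (medians 0.59 and 0.76). Beside Acsm1, Acsm2 was 616, 622, 561 and 325 FPKM in WT and 2104, 1838, 2590 and 3294 FPKM in cKO (2.22 ± 0.22, limma adjusted p = 9.66e-05), Acsm5 was 12.4 to 17.5 FPKM against 44.9 to 85.7 FPKM (1.85), and Acsm3 was 27.3 to 39.6 FPKM against 60.4 to 227 FPKM (1.75). Without replicate 4 the rises were 2.07 for Acsm2, 1.65 for Acsm5 and 1.44 for Acsm3. The long-chain Acsl4 and Acsl5 were the 2 that fell, Acsl5 by 0.98. Other long-chain members did not fall. Acsl3 rose by 0.32 (limma adjusted p = 0.0233), but was not called without replicate 4 (limma adjusted p = 0.0647). Acsl1 was at 0.03 (limma adjusted p = 0.961).

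Fatty acid oxidation genes rose in 11 of 42 and fell in 2, and without replicate 4 there were 9 rises and 0 falls, with medians of 0.11 and 0.09. Without WT replicate 3 or 4 there were 7 rises, and without WT replicate 3 the median was −0.05 with 4 falls. No gene of the list fell without WT replicate 2, WT replicate 4 or cKO replicate 3. Acox3, a peroxisomal oxidase, was 56.9 to 91.7 FPKM in WT and 150 to 162 FPKM in cKO (1.12). Ppargc1a, a coactivator of mitochondrial genes, was 12.4, 14.6, 11.7 and 13.7 FPKM in WT and 13.6, 28.5, 22.8 and 20.3 FPKM in cKO, and rose by 0.62 with overlap at cKO replicate 1. Of 32 nuclear genes for respiratory chain subunits and enzymes of the tricarboxylic acid cycle 17 rose, and 11 without replicate 4 (medians 0.31 and 0.27). That number was 29 without WT replicate 1 and 11 without WT replicate 3. Idh2, mitochondrial isocitrate dehydrogenase, was 200 to 343 FPKM in WT and 462 to 522 FPKM in cKO (0.95). None of the 13 genes of mitochondrial DNA was called (median 0.25). Without WT replicate 1 7 of them rose, and quantile normalization moved the median to −0.08 with 3 rises. Cholesterol synthesis rose in 8 of 21 and fell in 1, and without replicate 4 in 6 and 0. Cyp51 was 45.2 to 112 FPKM in WT and 134 to 306 FPKM in cKO (1.52), and it overlaps Akap9.

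Segment markers beyond the proximal tubule were mostly higher or not called. Of 20 genes of the thick ascending limb and distal tubule 12 rose and 0 fell, and without replicate 4 there were 10 rises and 0 falls (medians 0.51 and 0.56). Egf, the growth factor made there, was 165, 185, 113 and 70.5 FPKM in WT and 368, 530, 478 and 448 FPKM in cKO (1.85 ± 0.23, limma adjusted p = 2.72e-04). Umod, the protein uromodulin of the thick ascending limb, did not follow: it was 2094, 2001, 2579 and 1668 FPKM in WT and 2338, 2358, 1878 and 1540 FPKM in cKO (−0.04 ± 0.16, limma adjusted p = 0.865), and 0.08 without replicate 4. Collecting duct genes rose in 5 of 18, in 3 without replicate 4, and in 2 or 3 without any other library except WT replicate 2 and cKO replicate 1. Of 15 podocyte genes 2 fell, and 1 without replicate 4, and no endothelial gene of 16 was called. Cd2ap, an adaptor listed with podocytes but also made elsewhere, was 36.5, 54.9, 56.5 and 56.3 FPKM in WT and 23.1, 25.7, 22.5 and 17.4 FPKM in cKO (−1.16). Endothelial Pecam1, at 8.66 and 12.9 FPKM in replicate 1 of WT and cKO, was 25.7 to 34.9 FPKM in the other 6 cisplatin libraries.

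Stress and early response genes followed the injury genes. Of 17 immediate-early genes 14 fell, and 13 without replicate 4 while 1 rose (medians −1.75 and −1.48). Egr1, a zinc finger transcription factor, was 26.4, 17.3, 24.8 and 35.1 FPKM in WT and 7.27, 5.82, 2.91 and 1.21 FPKM in cKO (−2.48). Of 28 genes of the unfolded protein and integrated stress responses 19 fell and 2 rose, and without replicate 4 there were 16 falls and 2 rises (medians −0.70 and −0.61). Eif4ebp1, a repressor of translation, was 26.4 to 41.2 FPKM in WT and 9.16 to 11.8 FPKM in cKO (−1.60 ± 0.15, limma adjusted p = 8.52e-05). Atf3 was 13.7, 12.2, 29.7 and 11.9 FPKM against 6.83, 2.78, 2.22 and 0.653 FPKM (−2.23), and Atf4, which drives the integrated stress response, was 78.3 to 93.6 FPKM against 45.7 to 64.0 FPKM (−0.61). No cKO library of these genes reached the WT range. Without replicate 4 the fold changes were −2.11 for Egr1, −1.57 for Eif4ebp1, −1.87 for Atf3 and −0.51 for Atf4.

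Genes tied to RIPK4 in the epidermis were a mixed list, of which 9 of 16 fell and 2 rose, and 6 and 2 without replicate 4 (medians −0.47 and −0.40). Without WT replicate 3 or 4 there were 5 falls. Sfn, which encodes 14-3-3 sigma, was 30.8, 38.7, 62.3 and 40.1 FPKM in WT and 13.7, 6.76, 5.53 and 2.42 FPKM in cKO (−2.58). The tight junction gene Cldn1 was 19.6 to 70.3 FPKM against 7.78 to 12.5 FPKM (−1.90). Grhl2, a transcription factor of epithelial differentiation, was at −0.21 (limma adjusted p = 0.202). Of 22 Wnt signalling genes 2 fell and 1 rose in either fit, with a median of −0.12, near the −0.11 of all genes. Without WT replicate 1 there were 7 falls. Axin2, a common Wnt target, was at 0.07 (limma adjusted p = 0.783), Wnt10a fell by 1.30 and the inhibitor Sfrp1 rose by 1.35. Of 13 genes of cisplatin transport and conjugation 4 rose and 1 fell in either fit. Slc47a1, a proton-coupled exporter of organic cations, rose by 0.51, the conjugate-cleaving dipeptidase Dpep1 by 1.29, and Slc31a2 fell by 0.64. Male-biased kidney genes rose in 8 of 14 and fell in 2, with a median of 1.51 (1.33 without replicate 4, with 7 rises). Female-biased ones rose in 3 of 9 and fell in 1 in either fit. Of the male-biased list, Slc22a30, Slc7a13, Slco1a1, Cyp2e1, Cyp4b1, Kap, Ugt2b38 and Acsm3 are also in the proximal tubule or acyl-CoA synthetase lists. The same holds for Acsm2, Slco1a6 and Slc7a12 of the female-biased list, so these lists are not independent.

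Erythroid genes moved with replicate 4 alone. None of 8 was called in either fit, with medians of 1.04 with that library and 0.13 without it. Hba-a1 was at 2.25 ± 1.28 and 0.37 (limma adjusted p = 0.212 and 0.321). One of 8 adipose genes, Lpl, rose by 1.53, and no gene of adrenal gland (1 tested), skeletal muscle (1 tested) or the sex chromosome check (4 tested) was called.

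Some genes were called with all 8 libraries and not without replicate 4. The calls named here were also lost without at least 2 other libraries. Pdk4, which restrains pyruvate dehydrogenase, was 32.3, 267, 72.9 and 104 FPKM in WT and 69.1, 21.7, 7.09 and 8.30 FPKM in cKO. Its groups overlapped at cKO replicate 1, and its fall of 2.29 ± 0.70 (limma adjusted p = 0.0275) became 1.96 (limma adjusted p = 0.0840). Dpys, of pyrimidine breakdown, was 5.64, 3.14, 0.253 and 0.614 FPKM in WT and 10.1, 3.46, 5.83 and 23.7 FPKM in cKO (1.81, and 1.35 without it). Fos was 15.2, 7.69, 9.25 and 11.7 FPKM in WT and 4.69, 4.53, 1.33 and 0.944 FPKM in cKO (−1.75, and −1.47). Fos had groups that did not overlap, yet missed the threshold without replicate 4 (limma adjusted p = 0.0953). The other rises of this kind were Etnppl (1.58, and 1.10 without it), Ighv2-6 (1.49, and 1.36), Slc22a7 (1.44, and 1.33) and Ighv1-20 (1.41, and 1.27). The Ighv pair are immunoglobulin segments with near copies, and both lost the call without 7 of the 8 libraries in turn. The other falls were Fblim1 (−1.66, and −1.26), Lyz2 (−1.47, and −1.31) and Plat (−1.46, and −1.37).

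Other genes were called only without replicate 4. They were picked because the call was lost with that library, so nothing is read from where it lay. Gmds, the first enzyme of fucose synthesis, was 10.1, 6.10, 12.2 and 8.18 FPKM in WT and 4.28, 4.28, 5.08 and 15.8 FPKM in cKO. Replicate 4 was the highest of the 8, and the fold change went from −0.44 (limma adjusted p = 0.325) to −0.84 (limma adjusted p = 0.00772) without it. Arrdc2, an arrestin-domain protein, was 12.2, 11.7, 8.62 and 12.6 FPKM in WT and 22.8, 22.5, 51.5 and 9.16 FPKM in cKO, with replicate 4 inside the WT range (0.94, and 1.34 without it). Kyat1, a kynurenine aminotransferase, was 61.9, 66.3, 45.9 and 50.2 FPKM in WT and 107, 93.2, 105 and 51.4 FPKM in cKO (0.62, and 0.86). The remaining rises of this kind were Nccrp1 (1.62 without replicate 4), Snhg11 (0.95) and Ppp1r16b (0.91), and the falls were Trim12a (−1.42), Rpl17 (−1.04), Plau (−1.03) and Krt5 (−0.91). Rpl17 overlaps 3 small RNA genes or gene models.

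**Figure D5:**
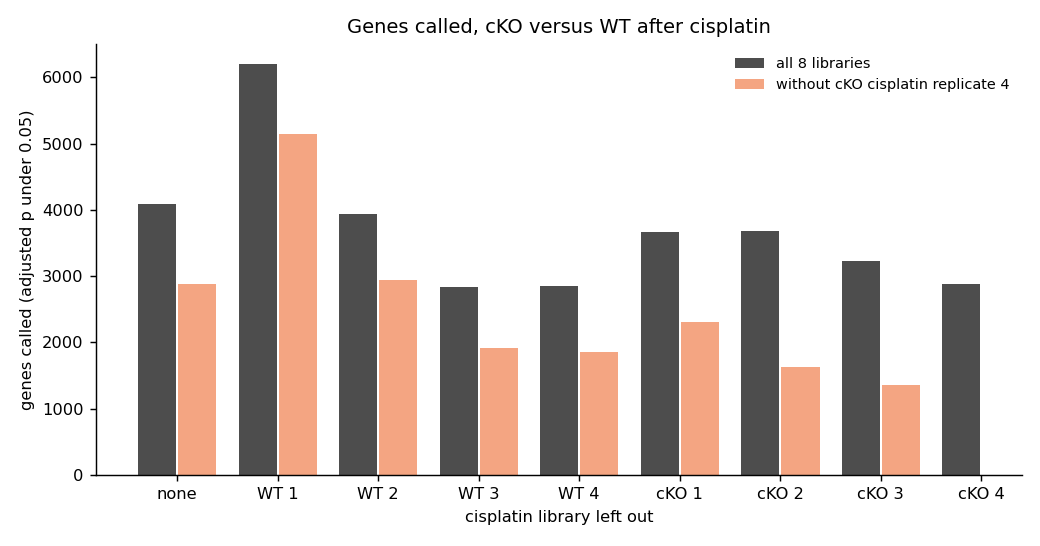
Number of genes called in cKO against WT after cisplatin when each of the 8 cisplatin libraries is left out in turn; dark bars start from all 8 libraries and light bars from the 7 without cKO replicate 4, and the first pair leaves out no other library (4088 and 2882 calls). Without WT replicate 1 the number was 6196, and over the 8 dark bars with a library left out it was 2831 to 6196.

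Without drug the same genotypes gave no call: limma called 0 of 15193 genes (0%), with 123 at an unadjusted p under 0.05 (0.81%). Chance alone would be expected to put a share near 0.05 of the genes there. The model shared 1 spread per gene among all 14 libraries, cisplatin ones included. The absence of calls thus does not show that the untreated genotypes were alike. The difference between genotypes after cisplatin was then tested against that without drug. This difference passed in 617 genes (4.06%), of which 214 were positive and 403 negative, and in 331 (2.18%) without replicate 4. Krt20 had −5.02 ± 0.71 (limma adjusted p = 0.0103), Havcr1 −4.14 ± 1.00 (limma adjusted p = 0.0374) and Inmt 4.52 ± 0.76 (limma adjusted p = 0.0129). Lcn2 did not pass with all libraries, at −4.32 ± 1.22 (limma adjusted p = 0.0632), and passed without replicate 4 at −3.29 (limma adjusted p = 0.0307). Kl (1.38, limma adjusted p = 0.0101) and Acsm2 (2.15, limma adjusted p = 0.0109) passed as well. Acsm1 did not, at 1.32 (limma adjusted p = 0.109), but passed without replicate 4 at 0.93 (limma adjusted p = 0.0395). Ripk4 had a difference of 0.09 (limma adjusted p = 0.912); without drug it was at −0.81 and was not called (limma adjusted p = 1). Of the tubular injury list 15 of 28 passed, and 13 without replicate 4; of NF-kB targets 6 of 25 and 5; and of the interferon-stimulated genes 0 of 31 in either fit.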

How the data were processed

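Kidney RNA in 14 libraries, each taken as 1 animal, was measured by RNA sequencing after Trizol extraction and TruSeq library preparation, per the labels' protocols. The submitters' processing notes name HISAT2 2.0.5 and the mm10 build; the counter, annotation and strand setting are not given in the sources used here. The authors deposited 1 table of 49584 genes in FPKM, and 0 of its columns lacked a sample. Coordinates are the table's; 99.5% of its gene IDs were found in GENCODE M21. No 2 libraries were identical (0 pairs).

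The deposited FPKM values were used without further scaling as log2(FPKM + 1), which understates changes of genes near or below 1 FPKM. A gene was tested where its 14 values averaged at least 0.5 FPKM (15193 kept, 34391 removed). limma 3.58.1 in R 4.3.3 fitted a mean per group to all 14 libraries, with a moderated spread and mean-variance trend, two-sided, with Benjamini-Hochberg adjustment over all genes tested and a threshold of 0.05. Errors are SEs of that model. Single genes were also compared by exact permutation (scipy 1.17.1; 70 arrangements for 4 against 4, 35 for 4 against 3). Figures were drawn with matplotlib 3.10.9. The fit was tested on simulated data with known changes. All simulated libraries had the same spread and none stood apart, so that test does not cover the uneven spread of the real libraries. Depths and floors describe counting error alone, as the reads have no molecular identifiers.

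The members and lists were chosen with earlier results of these data known. Named by rule were Ripk4 and Acsm1; the 10 largest rises and falls called in both fits without overlap between groups; the 5 largest each way called in only 1 of the fits; and up to 4 members of each list with the smallest p. These needed an average of 1 FPKM or more in the cisplatin libraries and excluded predicted gene models. Some genes that the rule selected are not reported here. Further genes, among them Fga, Spp1, Cdkn1a, Gdf15, Bax, Mdm2, Gpx4, Fth1, Tfrc, Gatm, Acsm3, Umod, Nqo1, Ppargc1a, Vcam1, Ccl2, Cxcl1, Egr1, Atf3, Atf4, the globins and list members given by fold change alone, were named for their role after their values were seen. Alternatives were another pseudocount, filters, scalings, weights, moderation, the first digit of the library title as a covariate, the cisplatin groups alone and leaving out libraries.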

Additional observations from a re-analysis of the deposited data

Results flagged for a closer look

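Of the 450 groups of 4 cisplatin libraries examined on log2(FPKM + 1), 30 held a library far from the rest. Its gap to its nearest neighbour exceeded 0.829 of the group's range on that scale, Dixon's critical value. Chance alone would single out about 1 group in 20. In cKO replicate 4 these were Gmds (15.8 FPKM), Cdkn1a (3.60 FPKM), Hba-a1 (267 FPKM) and Hbb-bs (441 FPKM), with the scores of p53 targets (3.06), erythroid genes (5.24) and lymphocytes (1.25). Other cKO libraries stood out in Slc12a3 (132 FPKM) and Eif4ebp1 (11.8 FPKM) in replicate 1, and in Col1a1 (21.9 FPKM) and Tfrc (35.9 FPKM) in replicate 3. WT replicate 4 was low in Cyp2d12 (0.443 FPKM) and Acsm2 (325 FPKM). It was high in Srxn1 (723 FPKM), Txnrd1 (309 FPKM), Bcl2l1 (209 FPKM), Wnt5a (17.1 FPKM), Atp6v1b1 (62.2 FPKM) and the metallothionein score (4.23). WT replicate 3 was high in Il1rn (27.5 FPKM), Cxcl1 (30.6 FPKM) and Atf3 (29.7 FPKM). In WT replicate 2, Saa1 (4.64 FPKM), Kl (51.6 FPKM) and the adipose score (4.07) were high and the adrenal score, of 1 gene, was low (1.03). WT replicate 1 was low in Casp8 (20.7 FPKM), Cd2ap (36.5 FPKM) and the endothelial score (3.27) and high in the antioxidant score (7.34). What set these libraries apart was not tested.

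For 15 of the 42 genes named by size or in advance, the genotype difference after cisplatin differed from that without drug by limma's test of the difference itself, and 13 of these 15 also passed without cKO cisplatin replicate 4. Over all genes tested 4.06% passed, and 2.18% without that library. Most of the 42 genes were chosen for a large difference after cisplatin, which is a term of this test, so nothing is read from their count. Cbr3 (limma adjusted p = 0.0474 with all libraries, 0.0843 without replicate 4) and Pzp (0.0421 and 0.0793) were the ones lost. Higher differences after the drug, on log2(FPKM + 1), were found for Inmt (4.52), Slc12a3 (3.07), Pvalb (2.69), Pzp (2.67), Ces1e (2.50), Dnase1 (2.49), Car14 (2.36) and Slc22a28 (2.33). Lower ones were found for Krt20 (−5.02), Havcr1 (−4.14), Cbr3 (−3.14), Sprr2g (−3.10), Fgg (−2.96), Tnfrsf12a (−2.94) and Fosl1 (−2.90). The untreated groups held 3 libraries each, and leaving out WT untreated replicate 2 brought the genes passing this test over the whole table from 617 to 85.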

How the results depend on the processing

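Over 18 other settings 3283 values of the named genes were recomputed; 3078 kept direction and side of the threshold, 159 lost the call, 35 gained it and 11 changed sign. The count of 4088 called genes became 2124 with the 2 cisplatin groups alone and lay between 2831 and 6196 when a cisplatin library was left out; other settings gave 3582 (no filter) to 6119 (array weights). Without replicate 4 the count of 2882 became 910 with the cisplatin groups alone, 6380 with array weights, 1868 with the title digit as a covariate and 4473 without replicate 1 of both groups, and leaving out a further library gave 1353 to 5144. The difference from the untreated genotype effect, 617 genes, became 255 with no filter, 3429 with array weights and 2217 without replicate 1 of both groups, and 85 to 2242 with a library left out. Without drug 0 to 1 genes were called when a library was left out. Ripk4 missed the threshold with the cisplatin groups alone (−0.72, limma adjusted p = 0.0806) and with array weights (−0.45, limma adjusted p = 0.0965), and its leave-one-out values ran from −0.92 to −0.55. Acsm1 was called under every setting. Values that were not called changed sign for Gpx4 (0.09 by median-of-ratios, 0.06 with array weights, 0.05 with the title digit, 0.10 without replicate 1 of both groups, −0.15 to 0.20 with a library left out) and Umod (0.08 by median-of-ratios, 0.06 with array weights, −0.15 to 0.08 with a library left out). List medians changed sign with a library left out for fatty acid oxidation (−0.05 to 0.22), adipose (−0.31 to 0.37), podocyte (−0.39 to 0.31), endothelium (−0.18 to 0.20), lymphocyte (−0.17 to 0.02), skeletal muscle (−0.03 to 0.19) and sex chromosome genes (−0.10 to 0.04), and by quantile normalization for Wnt signalling (0.03), mitochondrial DNA (−0.08) and sex chromosome genes (0.09); the erythroid median was 0.13 to 1.39. Apart from fewer libraries or genes in a fit, the cause of these changes was not tested. No paired analysis was possible because the labels give no replicate numbers that groups share. Genes below the worth of a few reads, 0.0130 to 0.0273 FPKM for 1 read in 1 kb, could not be told from 0.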
